A study of Mus musculus with 24 samples.

Results

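The iris and the RPE/choroid, the pigmented tissues of the mouse uvea, were compared on 6 one-color miRNA arrays, 3 of each tissue, out of 24 arrays from 8 tissues. The arrays labeled Iris and Choroid were taken, and the labeled choroid was read as the retinal pigment epithelium (RPE) with the choroid, as the study names that sample. All mice were male C57BL/6J, and the sources name no altered allele. The Control arrays came from eyes without a lens, the 0D arrays from eyes with a 0 D lens, and the Lens-induced arrays from right eyes that wore a -30 D lens for 3 weeks from an age of 3 weeks. RNA from 3 mice was mixed for each Control and Lens-induced array, whereas the pooling, the age and the wearing time of the 0D eyes were not given in the sources used here. Each tissue was measured once per lens group, so that an iris and an RPE/choroid array of the same lens group formed a pair and the 3 pairs served as replicates. The spread between pairs therefore holds lens wear, mice and arrays together. The RPE/choroid and the sclera were cut apart with scalpels, and the pairs shared a slide, because each slide held 1 lens group.

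The arrays carry probes for 1881 mouse miRNAs. The signal of a miRNA was the sum of its probes above 3 times their error, scaled between arrays, and it has no unit. The scale made the 75th percentile equal among the 79 miRNAs that every one of the 24 arrays detected. Between 213 and 239 miRNAs were detected on each of the 6 arrays (11.3% to 12.7%). A total of 280 were detected on at least 1 of them, and 181 on all 6. Over these 181 miRNAs, Pearson's r between log2 signals was 0.976 to 0.985 within iris, 0.986 to 0.989 within RPE/choroid and 0.836 to 0.866 between the tissues, as a description across miRNAs of arrays that share a slide and a scale. The number of arrays limits the precision of every value below.

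A miRNA is a short RNA that guides a silencing complex to messenger RNAs, mainly through its seed, here bases 2 to 8. Both tissues hold pigment cells: the iris has a pigmented epithelium of neural origin, a stroma with melanocytes, and sphincter and dilator smooth muscle, and the RPE/choroid has the epithelium that serves the photoreceptors above a vessel-rich layer with melanocytes. miR-204 and miR-211 are known from pigmented epithelium and melanocytes, miR-143 and miR-145a from smooth muscle, miR-126a from endothelium, miR-124 and the cluster of miR-183, miR-96 and miR-182 from neurons and photoreceptors, and miR-199a and miR-214 from mesenchyme.

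The mature sequences that the comparison turned on are given 5′ to 3′ from RefSeq (GRCm38.p6), with the seed in capitals. Of the 280 detected miRNAs, 232 were matched to RefSeq entries that could be printed. The first pair is shown because both members have 1 seed and differ at 1 of 22 positions, yet they were called in opposite directions.
miR-204-5p: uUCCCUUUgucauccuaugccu
miR-211-5p: uUCCCUUUgucauccuuugccu
The next set, a sensory cluster on chr6, is shown because it led the differences toward RPE/choroid.
miR-183-5p: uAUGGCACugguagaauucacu
miR-96-5p: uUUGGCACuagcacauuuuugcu
miR-182-5p: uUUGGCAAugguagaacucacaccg
These 3 members of the miR-200 family have 1 seed and were detected in iris and not in RPE/choroid.
miR-200b-3p: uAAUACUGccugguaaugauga
miR-200c-3p: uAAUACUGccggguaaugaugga
miR-429-3p: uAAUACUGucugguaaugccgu
The miR-181 and miR-193 members show families with members called in both directions.
miR-181a-5p: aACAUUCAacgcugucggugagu
miR-181b-5p: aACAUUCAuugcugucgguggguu
miR-181c-5p: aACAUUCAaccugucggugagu
miR-181d-5p: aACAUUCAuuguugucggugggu
miR-193a-3p: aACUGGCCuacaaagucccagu
miR-193b-3p: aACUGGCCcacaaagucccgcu
The miR-3473 members are shown because they had large ratios and share a run of 16 bases, so that their probes may take up each other's signal.
miR-3473a: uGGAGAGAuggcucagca
miR-3473b: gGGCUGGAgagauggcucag

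Which miRNAs differ between the tissues was tested with limma on the 181 miRNAs detected on all 6 arrays, with the lens group as a block. At an adjusted p under 0.05, 98 miRNAs (54.1%) were called, of which 48 were higher in iris (26.5%) and 50 higher in RPE/choroid (27.6%). The share of calls that were higher in iris was 49.0%, and it was 38.0%, 57.5% and 59.6% with the percentile taken over the 6 arrays, without scaling and with quantile normalization. The median log2 difference (iris minus RPE/choroid) over the 181 miRNAs was -0.15, and these scalings moved it to -0.25, 0.07 and 0.04. Small differences are therefore read relative to that shift. Calls that were also more than 2-fold apart in each of the 3 pairs numbered 39 (21.5%), 15 of them higher in iris (8.29%) and 24 higher in RPE/choroid (13.3%). The remaining side of the comparison is as large: 116 of the 181 miRNAs were within 2-fold in all 3 pairs.

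**Figure D1:**
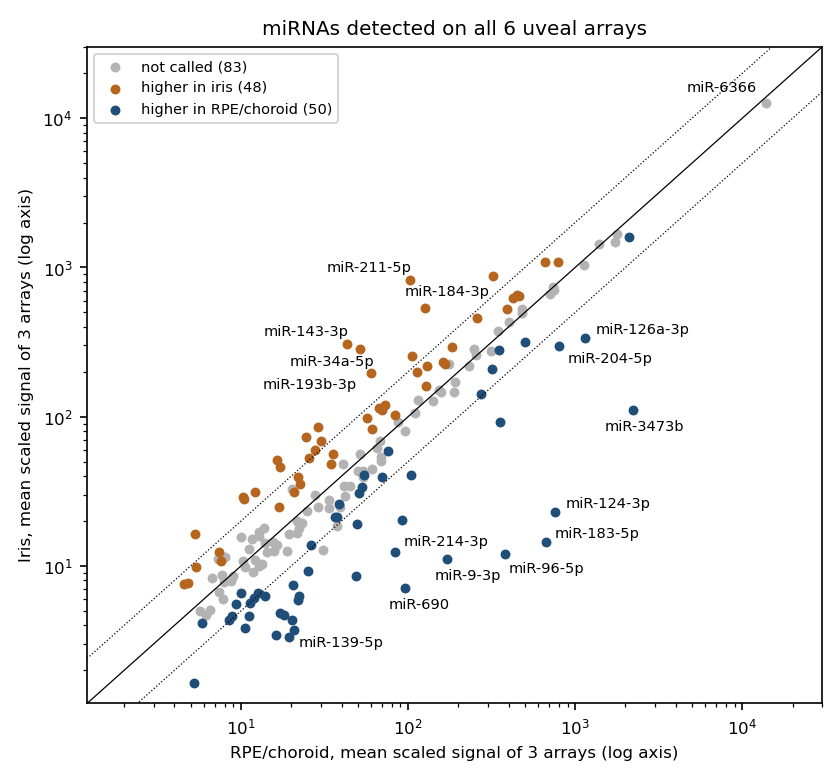
Mean scaled signal of the 3 iris arrays against that of the 3 RPE/choroid arrays for the 181 miRNAs detected on all 6, on log axes; the solid line marks equal signals, the dotted lines 2-fold, and the colors the limma calls (48 and 50). The points that lie farthest from the line are below it, on the RPE/choroid side, led by miR-183-5p, miR-124-3p and miR-96-5p.

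The study's ratio criteria also take in miRNAs that an array did not detect: over 2-fold where both arrays detected the miRNA and over 5-fold where 1 did. Here 0.1 was put in place of an undetected signal, which is far below every detected one. A pair with 1 detection therefore passed 5-fold by that value alone, so that such pairs count detection and not a measured fold. Of the 280 miRNAs, 78 (27.9%) met them in the same direction in all 3 pairs, 32 higher in iris (11.4%) and 46 higher in RPE/choroid (16.4%). The 32 were made up of 15 detected on all 6 arrays, 16 detected on the 3 iris arrays and on no RPE/choroid array, and 1 that was mixed. The 46 were made up of 24, 16 and 6 in the same order. For the 16 and 16 found in 1 tissue alone only a lower bound of the fold holds, set against the limit of detection, and it was above 1 for 6 of the iris miRNAs and 13 of the RPE/choroid miRNAs.

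The pigment cell miRNAs were detected in both tissues but were divided between them. miR-211-5p, whose hairpin lies within the span of Trpm1, a gene of melanocytes and ON bipolar cells (chr7:64205806-64205911, GRCm38.p6), had a scaled signal of 782, 906 and 772 on the Control, 0D and Lens-induced iris arrays and of 71.9, 127.5 and 108 on the RPE/choroid arrays. The iris signal was 8.20-fold higher (log2 3.04 ± 0.15 SE, adjusted p = 0.000131). This was the largest difference toward iris. The other arm of its hairpin, miR-211-3p, measured 53.6, 49.0 and 77.1 in iris and 28.0, 26.3 and 28.7 in RPE/choroid, and was 2.12-fold higher in iris (adjusted p = 0.00297).

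miR-204-5p, from a hairpin within the span of Trpm3 (chr19:22750605-22750672), took the opposite direction. It measured 288, 304 and 295 in iris and 758, 881 and 768 in RPE/choroid. The RPE/choroid signal was 2.70-fold higher (log2 -1.44 ± 0.07 SE, adjusted p = 0.000131), with no overlap between the tissues. Its other arm, miR-204-3p, was detected on all 3 RPE/choroid arrays at 34.3, 31.3 and 34.5 and on 1 iris array, the 0D array, at 2.63. Both arms of each hairpin thus lay on the same side, though miR-204-3p was not tested. In bulk tissue, fewer cells of a type and less RNA per cell cannot be told apart. The mature miR-204-5p and miR-211-5p differ by 1 base, and how much each probe takes up of the other miRNA was not tested.

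Neither miRNA was particular to the pigmented tissues. Across the ocular tissues miR-204-5p was highest in the lens of the eye (1198 to 1349), and it also measured 662 to 749 in cornea, 526 to 668 in retina and 519 to 670 in sclera. The iris held the lowest values of the 6 tissues. miR-211-5p was highest in iris and measured 144.1 to 190 in retina, so that RPE/choroid held 44.4% to 75.2% of the retinal signal. In cornea, lens and sclera it measured 12.0 to 43.3, 21.2 to 28.2 and 48.4 to 74.97. The RPE/choroid values for miR-211-5p thus lay below those of retina and above those of cornea and lens.

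**Figure D2:**
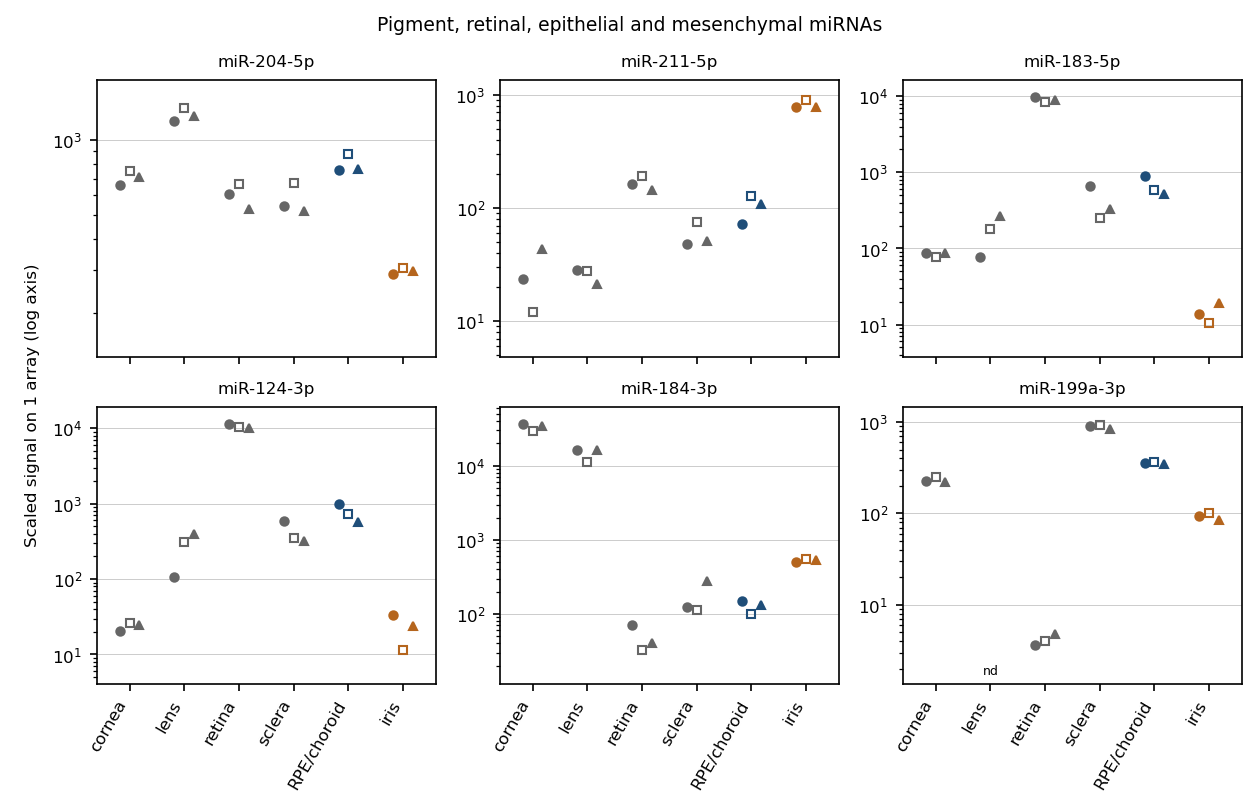
Scaled signal on each array (log axis) in the 6 ocular tissues for 2 pigment cell miRNAs (miR-204-5p, miR-211-5p), 2 retinal (miR-183-5p, miR-124-3p), 1 epithelial (miR-184-3p) and 1 mesenchymal (miR-199a-3p); circles are Control, open squares 0D, triangles Lens-induced arrays, orange is iris, blue RPE/choroid, and nd marks a tissue where no array detected the miRNA. The iris had the lowest miR-204-5p and the highest miR-211-5p of the 6 tissues.

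Smooth muscle miRNAs were higher in iris. miR-143-3p, which promotes the contractile state of smooth muscle, measured 304, 310 and 307 in iris and 42.0, 43.0 and 44.6 in RPE/choroid, a 7.10-fold difference with a narrow spread in both tissues (log2 2.83 ± 0.07 SE, adjusted p = 6.28e-05). Its cluster partner miR-145a-5p was detected on all 3 iris arrays (15.2, 14.8 and 24.1) and on no RPE/choroid array, which makes it at least 2.11-fold higher in iris. The summed signal of the 4 listed smooth muscle miRNAs was 319 to 331 in iris and 42.0 to 44.6 in RPE/choroid, and miR-143-5p and miR-145a-3p were not detected in either tissue. Neither cornea, lens nor retina showed miR-143-3p on any array, whereas the sclera measured 24.1 to 39.9. Of the striated muscle miRNAs, miR-1a-3p, miR-133a-3p and miR-133b-3p were tested and none was called, beside 83 not called among all 181 tested miRNAs. miR-133a-3p, for one, measured 27.6, 29.8 and 31.3 in iris and 29.1, 46.8 and 49.3 in RPE/choroid. Without the Control pair, miR-133a-3p and miR-133b-3p were called higher in RPE/choroid (adjusted p = 0.0276 and 0.0226). With the percentile taken over the 6 arrays 2 of the 3 were called higher in RPE/choroid. With normexp background correction and with the printed total signal 1 was called higher there, and with quantile normalization 1 was called higher in iris.

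The rest of the 8 largest differences toward iris held miRNAs of several kinds. miR-34a-5p, a target of p53 known as a brake on the cell cycle, measured 299, 264 and 291 in iris and 53.0, 47.9 and 54.7 in RPE/choroid, 5.49-fold higher in iris (adjusted p = 6.28e-05). The iris values were also the highest of the ocular tissues, with 98.6 to 117 in retina and 20.6 to 70.4 over cornea, lens and sclera. miR-193b-3p measured 199.4, 175 and 219 against 57.3, 58.3 and 64.6 (3.28-fold, adjusted p = 0.000131). miR-221-3p, a miRNA that represses the cell cycle inhibitor p27, was dim in both tissues, at 17.1, 16.6 and 15.7 against 4.97, 6.06 and 4.85 (3.12-fold, adjusted p = 0.000576). miR-324-5p measured 74.6, 69.6 and 74.7 against 24.5, 24.5 and 24.4 (2.98-fold, adjusted p = 0.00029). Their groups did not overlap, which is largely given by the choice of miRNAs over 2-fold apart in all 3 pairs.

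The miR-378 group was higher in iris as well. miR-378b measured 51.6, 53.0 and 48.7 in iris and 13.6, 19.5 and 15.98 in RPE/choroid (3.16-fold, adjusted p = 0.000683). miR-378d and miR-378a-3p were 2.72-fold and 2.57-fold higher, and miR-378a-5p was detected in iris alone (13.8, 13.4 and 14.3, at least 1.68-fold). miR-378b and miR-378d share a run of 14 bases, so that their signals may not be separate. miR-378a-3p and miR-378a-5p come from 1 hairpin.

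miRNAs of surface epithelium were higher in iris or were detected there alone, with 1 exception. miR-184-3p, the leading miRNA of corneal and lens epithelium, measured 505, 550 and 541 in iris and 147, 99.7 and 132 in RPE/choroid, 4.26-fold higher in iris (log2 2.09 ± 0.14 SE, adjusted p = 0.000321). Of the 9 listed epithelial miRNAs 8 were detected. Of the 2 that were tested 1 was called higher in iris, beside 26.5% of all tested miRNAs. The other, miR-31-5p, was not called (20.2, 18.6 and 19.7 in iris, 22.6, 22.1 and 24.6 in RPE/choroid). The remaining 6 were detected on the 3 iris arrays and on no RPE/choroid array, beside 16 of all 280 detected miRNAs. Among these 6, miR-429-3p (12.3, 12.9 and 19.0), miR-200b-3p (11.5, 13.7 and 14.9) and miR-200c-3p (8.90, 10.67 and 13.6) were at least 1.77-fold, 1.64-fold and 1.34-fold higher in iris. miR-141-3p, miR-200a-3p and miR-205-5p lay too near the limit of detection for a bound above 1. The miR-200 family maintains the epithelial state, and its members above come from a locus on chr4 (miR-429 and miR-200b) and another on chr6 (miR-200c).

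The cornea and the lens carry far more of these miRNAs. Iris miR-184-3p was 1.37% to 1.85% of the corneal signal and 3.13% to 4.94% of that of the lens, iris miR-205-5p was 0.41% to 0.73% of the corneal signal and iris miR-200b-3p 2.20% to 3.01%. The summed signal of the list was 571 to 624 in iris and 122 to 170 in RPE/choroid, and miR-203-3p was not detected in either. The part of corneal or lens tissue in these iris values was not tested.

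**Figure D3:**
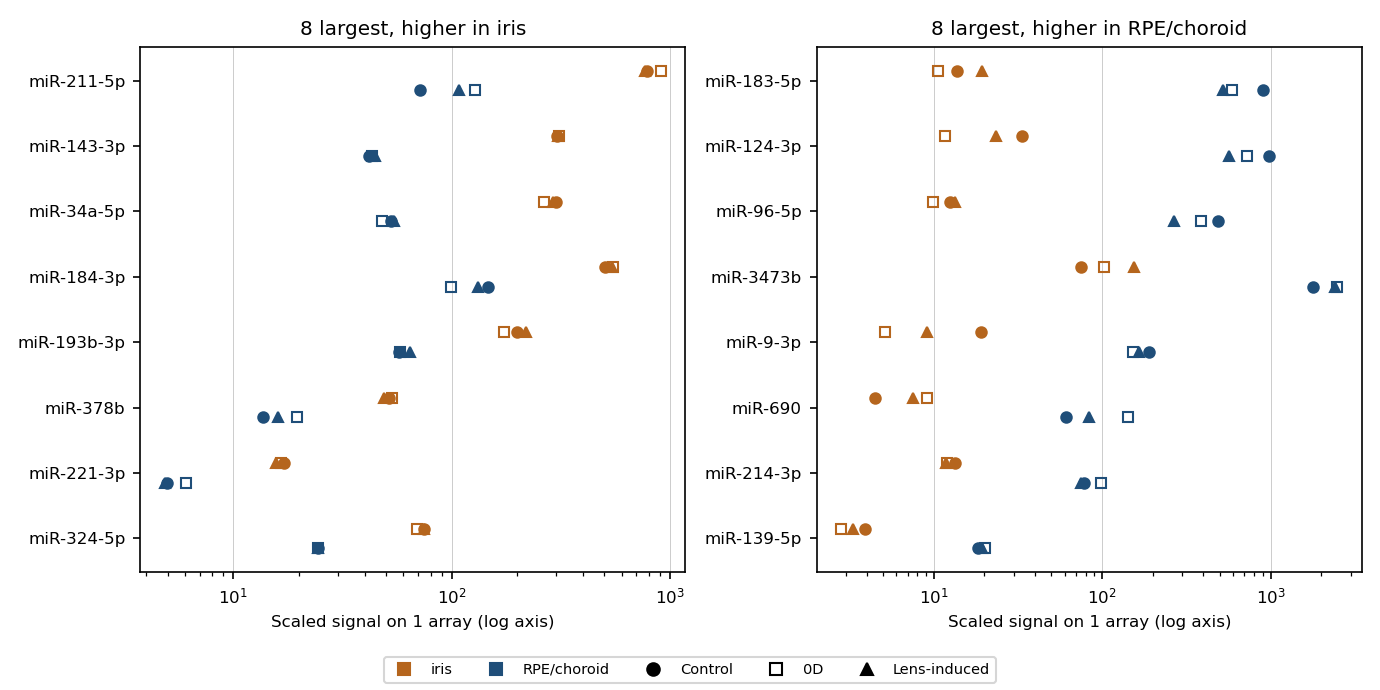
Scaled signal on each array (log axis) for the 8 largest called differences in each direction; orange is iris and blue RPE/choroid, with circles for Control, open squares for 0D and triangles for Lens-induced arrays. No miRNA shown had overlapping tissues, which is largely given by their choice as large differences in every pair. Among those shown, the gap was widest for miR-183-5p (10.6 to 19.3 against 520 to 900).

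Retinal and neuronal miRNAs made up the largest differences toward RPE/choroid. miR-183-5p, a miRNA of photoreceptors and other sensory cells, measured 13.7, 10.6 and 19.3 in iris and 900, 588 and 520 in RPE/choroid. The difference was 46.2-fold (log2 -5.53 ± 0.27 SE, adjusted p = 0.000131). miR-96-5p of the same cluster measured 12.5, 9.92 and 13.4 against 487, 386 and 267 (31.1-fold, adjusted p = 0.000131). The last member, miR-182-5p, was detected on every RPE/choroid array (49.0, 34.1 and 26.4) and on no iris array, which makes it at least 6.53-fold higher in RPE/choroid. All 3 had their highest RPE/choroid value on the Control array and their lowest on the Lens-induced array. miR-124-3p, the most widely used neuronal marker among miRNAs, did the same: it measured 33.4, 11.6 and 23.5 in iris and 985, 724 and 570 in RPE/choroid (35.4-fold, adjusted p = 0.000145).

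miR-9-3p, one arm of a hairpin of neural progenitors and neurons, measured 19.2, 5.13 and 9.17 in iris and 191, 153 and 166 in RPE/choroid (17.5-fold, adjusted p = 0.000462), and miR-9-5p was detected in RPE/choroid alone (7.88, 6.47 and 5.76, at least 1.23-fold). Of the 10 listed retinal and neuronal miRNAs 8 were detected, 5 were tested, 4 were called higher in RPE/choroid and none higher in iris, beside 27.6% and 26.5% of all tested miRNAs. miR-128-3p was the one not called (28.0, 8.73 and 11.2 in iris, 17.9, 10.03 and 10.39 in RPE/choroid). The median log2 difference of the 5 was -4.96, beside -0.15 for all 181. miR-129-5p and miR-129-2-3p, known from retina and brain and not on the list, were 3.84-fold and 3.53-fold higher in RPE/choroid (adjusted p = 0.00029 and 0.000486).

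The neural retina lies against the RPE, and its arrays gave the scale of these values. The RPE/choroid signal was 5.84% to 9.27% of the retinal signal for miR-183-5p, 5.33% to 8.48% for miR-96-5p, 4.53% to 6.80% for miR-182-5p and 5.59% to 8.63% for miR-124-3p. miR-9-3p was higher, at 17.7% to 24.1%. In iris, miR-183-5p was 0.12% to 0.22% and miR-124-3p 0.11% to 0.29% of the retinal signal. The sclera, which carries no photoreceptors, held these miRNAs too, with RPE/choroid at 137% to 233% of the sclera for miR-183-5p and 168% to 209% for miR-124-3p. The summed signal of the retinal list was 46.0 to 107 in iris and 1566 to 2643 in RPE/choroid, and miR-124-5p and miR-138-5p were not detected in either. The part of retinal tissue in the RPE/choroid values was not tested. By comparison, the RPE/choroid signal of miR-204-5p was 125.4% to 146% of the retinal signal.

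Mesenchymal miRNAs were higher in RPE/choroid: 7 of the 9 listed were detected, all 7 were tested and all 7 were called higher there, beside 27.6% of all tested miRNAs. Their median log2 difference was -1.95. With quantile normalization and with normexp background correction 6 of the 7 were called higher there. With the printed total signal 4 were, and 1, miR-214-3p, was called higher in iris. miR-214-3p, transcribed with miR-199a in fibroblasts and skeletal precursors, measured 13.4, 11.9 and 11.8 in iris and 77.8, 98.3 and 74.6 in RPE/choroid (6.71-fold, adjusted p = 0.000145). miR-199a-5p and miR-199a-3p were 5.71-fold and 3.87-fold higher, and the latter measured 93.0, 100 and 84.0 against 354, 367 and 349. The cartilage miRNAs miR-140-3p (18.2, 22.3 and 20.0 against 84.7, 101 and 89.4) and miR-140-5p were 4.55-fold and 2.57-fold higher. miR-199b-5p and miR-455-3p differed less, by 1.94-fold and 1.96-fold, and without the Lens-induced pair miR-455-3p was not called (adjusted p = 0.0755). The summed signal of the list was 302 to 332 in iris and 954 to 989 in RPE/choroid. In sclera these miRNAs were higher still: RPE/choroid held 39.0% to 41.9% and iris 10.1% to 10.8% of the scleral miR-199a-3p signal. The part of scleral tissue in the RPE/choroid values was not tested.

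The endothelial miR-126a-3p, a regulator of vessel integrity, measured 331, 350 and 329 in iris and 1198, 1030 and 1203 in RPE/choroid, 3.39-fold higher in RPE/choroid (log2 -1.76 ± 0.09 SE, adjusted p = 0.000145). No other ocular tissue reached the RPE/choroid values: they were 266% to 496% of the sclera and 1372% to 1783% of the retina. Its other arm, miR-126a-5p, was detected on 2 RPE/choroid arrays (4.04 and 4.55) and on no iris array. Blood cell miRNAs showed no such gap. miR-451a of red cells measured 33.5, 37.0 and 32.3 in iris and 34.2, 41.8 and 59.4 in RPE/choroid (1.29-fold higher in RPE/choroid, adjusted p = 0.179), and miR-223-3p of myeloid cells was 1.35-fold higher in RPE/choroid (adjusted p = 0.0404), a call that was lost without the Control pair (0.15) or the Lens-induced pair (0.161) and with no scaling, quantile normalization or normexp background correction. The summed blood cell signal was 70.4 to 87.1 in iris and 92.2 to 123 in RPE/choroid, and of the 8 blood cell miRNAs on the array 5 were not detected in either tissue, among them miR-150-5p of lymphocytes. miR-139-5p measured 3.92, 2.83 and 3.34 in iris and 18.3, 20.1 and 19.4 in RPE/choroid (5.78-fold, adjusted p = 0.000285). It was at 384% to 511% of the retinal signal in RPE/choroid and was not detected in cornea or lens.

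The imprinted Dlk1-Dio3 cluster is a large set of maternally expressed miRNAs on chr12. Of 29 listed members on the array 9 were detected on at least 1 of the 6 arrays, beside 280 of all 1881 miRNAs. The 3 that were tested were called higher in RPE/choroid, beside 27.6% of all tested miRNAs. miR-127-3p measured 4.04, 2.94 and 3.37 in iris and 15.4, 19.5 and 13.9 in RPE/choroid (4.70-fold, adjusted p = 0.000683), and miR-154-5p measured 5.22, 3.62 and 4.14 against 20.5, 20.8 and 19.2 (4.72-fold, adjusted p = 0.000351). miR-494-3p was 2.51-fold higher (adjusted p = 0.00541, and 0.0553 without the Lens-induced pair). miR-410-3p (10.9, 10.6 and 9.93) and miR-379-5p were detected in RPE/choroid alone and were at least 1.89-fold and 1.75-fold higher. None of the 5 listed HOX cluster miRNAs, which mark trunk and limb tissue, was detected in either tissue. Most miRNAs were not detected either (280 of 1881 were), so that nothing is read from this count. Among the inflammation-linked miRNAs, miR-146a-5p, a feedback inhibitor of NF-kB signaling, was 2.20-fold higher in RPE/choroid (adjusted p = 0.00148), and miR-21a-5p (240, 331 and 279 against 237, 256 and 251) and miR-155-5p were not called.

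Some of the widest gaps belonged to miRNAs with no settled cell type. miR-3473b, from a hairpin within the span of Ccdc162 (chr10:41670739-41670793), measured 74.6, 103 and 154 in iris and 1793, 2489 and 2406 in RPE/choroid (20.8-fold, adjusted p = 7.97e-05). The sclera was brighter, at 2589 to 5287. miR-3473a was detected on no iris array and measured 26.7, 40.8 and 35.8 in RPE/choroid, at least 6.25-fold higher, and miR-3470a was at least 2.73-fold higher (14.3, 16.1 and 14.5). miR-690 measured 4.50, 9.14 and 7.55 in iris and 61.4, 142.5 and 83.9 in RPE/choroid (13.3-fold, adjusted p = 0.000109), again with the sclera in the same range (77.0 to 170).

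Some families that share a seed had members called in opposite directions. This held for 6 of the 18 seeds with more than 1 tested member, and 11 of the 18 had 2 or more calls, where 26.5% of all tested miRNAs were called higher in iris and 27.6% higher in RPE/choroid. The 4 miR-181 members, which share the seed printed above, were called in both: miR-181a-5p (17.6, 21.2 and 25.3 in iris, 39.2, 39.2 and 34.3 in RPE/choroid) and miR-181b-5p were 1.77-fold and 1.72-fold higher in RPE/choroid, while miR-181c-5p (39.8, 39.99 and 38.8 against 22.3, 22.0 and 21.4) and miR-181d-5p were 1.81-fold and 1.68-fold higher in iris. miR-181a and miR-181b are encoded together on chr1 and again on chr2, and miR-181d on chr8. Without scaling and with quantile normalization neither miR-181a-5p nor miR-181b-5p was called, and without the Lens-induced pair miR-181d-5p was not (adjusted p = 0.0521). miR-193a-3p of chr11 was 5.57-fold higher in RPE/choroid (3.28, 3.75 and 4.20 against 22.3, 21.4 and 18.7, adjusted p = 0.00029), opposite to miR-193b-3p of chr16, from which it differs at 3 of 22 positions.

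The miR-99/100 seed divided as well. miR-99a-5p (325, 291 and 334 in iris, 501, 443 and 559 in RPE/choroid) was 1.58-fold higher in RPE/choroid, whereas miR-100-5p (198, 180 and 218 against 109, 102 and 128.01) and miR-99b-5p (50.4, 52.3 and 54.8 against 23.97, 26.9 and 25.4) were 1.77-fold and 2.07-fold higher in iris. miR-99a-5p and miR-100-5p differ at 1 of 22 positions. The call of miR-99a-5p was lost without scaling, and that of miR-100-5p was lost in 1 of the alternative settings. The other split seeds were those of miR-148a-3p (1.56-fold higher in iris) and miR-152-3p (1.56-fold higher in RPE/choroid), of miR-204-5p and miR-211-5p, and of the miR-15/16 family, where miR-195a-5p and miR-497a-5p were 1.60-fold and 1.45-fold higher in iris, miR-322-5p 1.30-fold higher in RPE/choroid, and miR-15a-5p, miR-15b-5p and miR-16-5p not called. Without the Control or the Lens-induced pair miR-322-5p was not called (adjusted p = 0.0991 and 0.0627). The call of miR-152-3p was lost in 2 of the alternative settings.

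**Figure D4:**
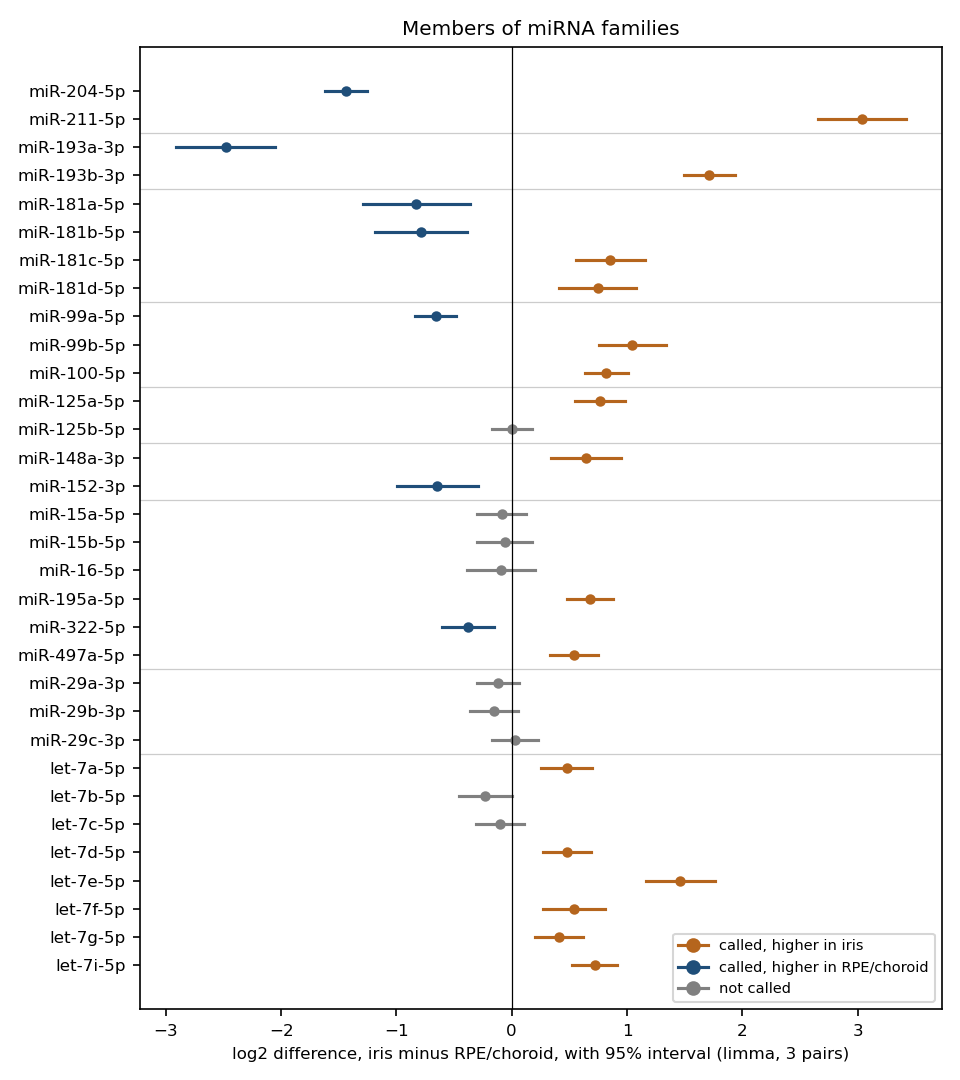
log2 difference (iris minus RPE/choroid) with its 95% confidence interval from limma over 3 pairs for the tested members of 9 families, orange where called higher in iris, blue where called higher in RPE/choroid and gray where not called. The families of miR-204, miR-193, miR-181, miR-99, miR-148 and miR-15 hold both colors, whereas the let-7 members shown are orange or gray and miR-29 is gray.

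Of 23 genomic clusters (hairpins less than 10000 bp apart) with more than 1 tested miRNA, 12 held 2 or more calls, and none of these held calls in both directions. Of all tested miRNAs 54.1% were called, 26.5% higher in iris and 27.6% higher in RPE/choroid. Some of the 12 count both arms of a hairpin, and the calls of miR-181a-5p and miR-181b-5p count on chr1 and again on chr2. Whether clusters differ from seed families was not tested. On chr17, let-7e-5p (884, 882 and 869 in iris, 344, 260 and 361 in RPE/choroid, 2.76-fold) and miR-125a-5p (1.70-fold) were both higher in iris. let-7a-5p, let-7d-5p and let-7f-5p, which have hairpins together on chr13, were all higher in iris (1.39-fold, 1.40-fold and 1.46-fold). On chr1, miR-199a-5p, miR-199a-3p and miR-214-3p were all higher in RPE/choroid, as were miR-96-5p and miR-183-5p on chr6. A mature miRNA with several hairpins counts at each of them, since the array cannot tell them apart.

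Most of the let-7 family, repressors of growth genes that rise in differentiated cells, was modestly higher in iris. Of 9 members tested, 6 were called higher in iris (26.5% of all tested miRNAs were) and 0 higher in RPE/choroid (27.6%), with a median log2 difference of 0.48 beside -0.15 for all 181. let-7i-5p measured 1122, 1084 and 1051 in iris and 636, 666 and 678 in RPE/choroid (1.65-fold, adjusted p = 0.00112). let-7b-5p and let-7c-5p were not called, at log2 -0.23 and -0.10, and with quantile normalization they turned to 0.18 and 0.37 and were called higher in iris. let-7a-5p and let-7e-5p differ at 1 of 22 positions and may share signal. In the miR-30 family 2 of 5 members, miR-30c-5p and miR-30e-5p, were called higher in iris, near the 26.5% of all tested miRNAs, and none higher in RPE/choroid. Without the Control or the Lens-induced pair miR-30c-5p was not called (adjusted p = 0.0673 and 0.128), and without the 0D pair miR-30d-5p was (0.00275). Of the 7 tested members of miR-17/92 and its paralogs, 3 were called higher in iris and 1, miR-25-3p, higher in RPE/choroid, beside 26.5% and 27.6% of all tested miRNAs. The calls of miR-19b-3p and miR-25-3p were lost without any 1 of the pairs (adjusted p = 0.0991 to 0.134 and 0.0514 to 0.0590). Of the 6 tested members of the miR-23/27/24 clusters 2 were called, both higher in RPE/choroid, near the 27.6% of all tested miRNAs, among them miR-23b-3p (1.25-fold, not called without the Lens-induced pair, adjusted p = 0.0755). The call of miR-23b-3p was lost in 3 of the alternative settings, and without scaling none of the 6 was called.

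Other bright miRNAs differed little. miR-125b-5p measured 710, 775 and 737 in iris and 687, 778 and 759 in RPE/choroid, with a 95% interval of the log2 difference from -0.17 to 0.17. The collagen-targeting miR-29a-3p, miR-29b-3p and miR-29c-3p were not called, and the intervals were -0.30 to 0.07, -0.36 to 0.05 and -0.17 to 0.22. The brightest signal in both tissues, that of miR-6366, measured 11487, 9096 and 17443 in iris and 13417, 12422 and 15770 in RPE/choroid and was not called (interval -0.62 to 0.27). miR-5100 was not called either, and miR-3963 was 1.34-fold higher in RPE/choroid (adjusted p = 0.0334), a call lost without the Control pair (0.0649) or the 0D pair (0.147). These intervals leave room for small differences in either direction.

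Which miRNAs the pigmented tissues share was tested in a limma fit over the 18 arrays of the 6 ocular tissues, on 308 miRNAs detected on at least 3 of them. A miRNA was called shared where iris and RPE/choroid were each higher than cornea, lens and retina. This held for 16 of 308 (5.19%): let-7c-5p, let-7i-5p, miR-22-3p, miR-24-3p, miR-99a-5p, miR-100-5p, miR-125b-5p, miR-126a-3p, miR-143-3p, miR-152-3p, miR-195a-5p, miR-223-3p, miR-451a, miR-497a-5p, miR-652-3p and miR-669n. With the sclera added as a further tissue to exceed, 0 remained (0%), so that each of the 16 was not called higher than sclera in at least 1 of the pigmented tissues. Neither miR-204-5p nor miR-211-5p was among the 16.

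The smooth muscle miR-143-3p was not detected on any cornea, lens or retina array, so that its margins are bounds. Against those tissues iris was at least 15.7-fold, 12.1-fold and 52.9-fold higher and RPE/choroid at least 2.21-fold, 1.71-fold and 7.44-fold higher. The endothelial miR-126a-3p measured 67.5 to 75.1 in retina, was detected on 1 cornea array and on no lens array, and its iris signal was 466% to 487% of the retinal one. miR-451a of red cells was detected on 2 cornea arrays, on no lens array and on all 3 retina arrays, and in iris it was at 279% to 294% of retina. miR-223-3p was detected on 2 cornea arrays and on no lens or retina array, and where both tissues detected it the iris was at 182.5% (0D) and 287% (Lens-induced) of cornea. For these miRNAs the fit put undetected values at the dimmest detected signal of the array, and no order among them is read from it. The part of vessels and blood in the remaining members was not tested.

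miR-152-3p measured 32.3, 33.3 and 35.5 in iris and 48.8, 62.4 and 47.8 in RPE/choroid against 13.3 to 14.6 in cornea, with no detection in lens and 1 in retina, and the sclera was brighter (83.7 to 114). miR-652-3p measured 110, 107 and 112 in iris and 64.4, 72.7 and 73.3 in RPE/choroid, against 28.9 to 37.6 in cornea and 36.6 to 40.1 in retina. miR-669n had low signals (15.3 to 30.4 in the pigmented tissues) and was detected on 2 cornea arrays and on no lens array. miR-652-3p and the other members stood 0.40 to 0.88 above the nearest tissue on the log2 scale, with miR-652-3p the highest, each measured on all 3 arrays of that tissue. miR-125b-5p, the nearest to equal between iris and RPE/choroid of all the miRNAs described here, measured 380 to 424 in cornea, 418 to 489 in lens and 416 to 488 in retina, with the sclera at 680 to 930. Several shared miRNAs still differed between the pigmented tissues, as miR-143-3p and miR-126a-3p did in opposite directions.

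**Figure D5:**
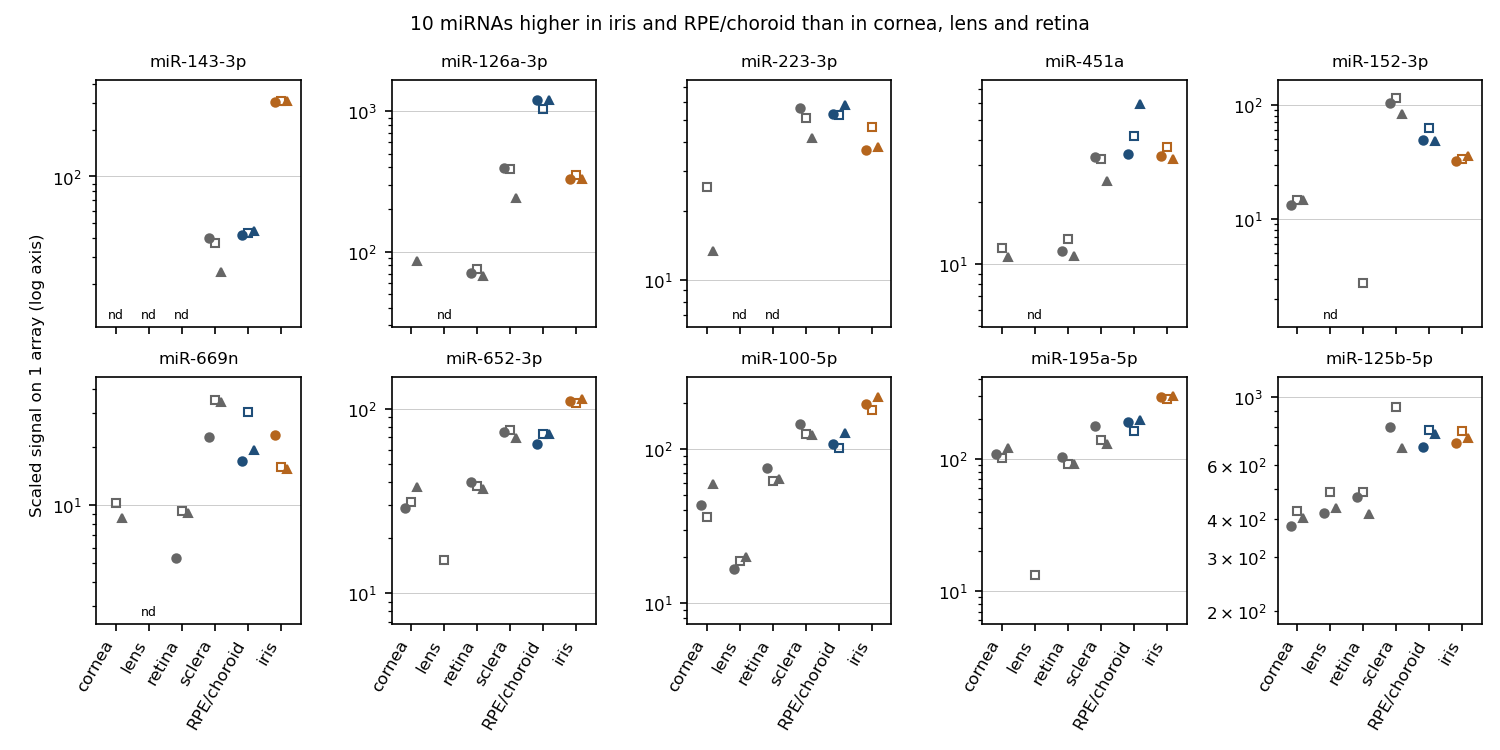
Scaled signal on each array (log axis) in the 6 ocular tissues for the 10 shared miRNAs with the largest fitted margin, undetected values filled; circles are Control, open squares 0D, triangles Lens-induced arrays, orange is iris, blue RPE/choroid, and nd marks a tissue where no array detected the miRNA. The scleral points (such as 83.7 to 114 for miR-152-3p) often lie among or above those of the pigmented tissues, and the iris is highest for miR-143-3p, miR-652-3p, miR-100-5p and miR-195a-5p.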

How the data were processed

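The deposited scanner files were used. The authors labeled 100 ng of total RNA with cyanine 3, hybridized it to mouse miRNA arrays (miRBase 21) and digitized the scans with Agilent Feature Extraction 10.7.1.1, per the labels and the file headers. The intensity values deposited for each probe are its background-subtracted total signal and its error. The total intensity that the files print per miRNA differed from the sum of its probes for some miRNAs on each array, so that the sum over unique probes above 3 errors was computed anew, without control spots. No spot was saturated. The intensities of a further deposited table for the whole series were not used.

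The sums were scaled as described above (log2 factors from -1.01 to -0.37 on the 6 arrays). limma 3.58.1 in R 4.3.3 (lmFit, eBayes with trend, two-sided) was fitted to log2 signals with lens group as a block and Benjamini-Hochberg adjustment at 0.05. For the shared miRNAs each undetected value took the dimmest signal that its array still detected. Bounds set the undetected side to its probes at 3 errors, summed, or to that dimmest signal if larger. The fit was tested on simulated data.

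The pairs rest on lens group and slide, which are the same factor, and not on animals. The deviations of paired arrays from their tissue means correlated at r = 0.09, 0.38 and 0.50 (Control, 0D, Lens-induced; across miRNAs).

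Named miRNAs were the 8 largest called differences in each direction that exceeded 2-fold in all 3 pairs, the 4 largest bounds in each direction, the 10 shared miRNAs with the largest margin, the 5 brightest, the detected members of 8 cell type lists, examples of other lists, and miRNAs that reversed by over 2-fold between pairs. miR-139-5p, miR-129-5p, miR-193a-3p and other family members were added after their values were seen. The members and lists were chosen with earlier results of these data known. Sequences and positions came from RefSeq (GRCm38.p6), and an entry that could not be matched is only named. Python 3.11.15 with pandas 2.3.3, numpy 2.4.6 and matplotlib 3.10.9 was used.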

Additional observations from a re-analysis of the deposited data

Results flagged for a closer look

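For 3 miRNAs the iris was over 2-fold higher than RPE/choroid in 1 pair and over 2-fold lower in another. The log2 difference (iris minus RPE/choroid) of miR-32-3p was 1.1129 in the Control pair and -1.2603 in the 0D pair. That of miR-466g was 1.5435 in the Control pair and -1.1012 in the Lens-induced pair. That of miR-574-3p was 1.2079 in the Control pair, -2.2755 in the 0D pair and -1.3517 in the Lens-induced pair. With 1 array per tissue and lens group the difference between pairs was not tested. All 3 were dim, with scaled signals of 1.49 to 20.8 where detected, and miR-32-3p and miR-466g were each missed by 1 iris array. miR-574-3p alone was detected on all 6 arrays, and it was not called over the 3 pairs (log2 -0.81, adjusted p = 0.348 by limma) but was called higher in RPE/choroid without the Control pair (log2 -1.81, adjusted p = 0.000296).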

How the results depend on the processing

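Of the 74 tested miRNAs that the naming rule gave, 49 were called, and their 883 values under the alternatives kept direction and side of the threshold in 810 cases, counting 39 uncalled values near 0 whose sign turned. A call was lost in 49 cases and gained in 18. Among all 98 calls the sign turned in 12 with the printed total signal, for miR-129-2-3p among others, and in 1 each with normexp and quantile normalization. The 6 reversals among the 74 were miR-221-3p (-5.616), miR-214-3p (3.149), miR-154-5p (0.7299) and miR-127-3p (2.053) with the printed total signal, and let-7c-5p (0.3722) and let-7b-5p (0.1794) with quantile normalization. The cause was not tested for any of them. The number of calls ranged from 78 (printed total signal) to 136 (miRNAs detected on all 3 arrays of 1 tissue). With every miRNA detected on at least 1 array, 76 were higher in RPE/choroid. Without the replicate block on lens group 105 were called (51 and 54), 96 of the 98 among them. Leaving out 1 pair gave 39 to 46 calls higher in iris, 44 to 56 higher in RPE/choroid and 15 to 17 shared miRNAs. Among miRNAs differing in all 3 pairs, 3-fold in place of 2-fold left 21 higher in iris, and normexp with an offset of 50, which compresses dim signals, left 7 and 11. The shared miRNAs numbered 27 without scaling, 30 with quantile normalization, 0 with the sclera added, and 13 with undetected values at 3 errors, a setting chosen after seeing the data. A percentile over all 1881 miRNAs gave no scale, since under 25% are detected, and a slide block is the lens group block. Normexp used median spot signals.

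One array per tissue and lens group leaves lens wear, slide and animals inseparable, and the 3 pairs measure only the spread between these arrays. Under 13% of the miRNAs were detected, so that a dim miRNA missed in a tissue has only a bound. Dissection was by hand, and admixture from retina, sclera or cornea was not tested.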
